A study of Danio rerio with 15 samples.

Results

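Transcript usage, the share of a gene's reads that falls on each of its alternative transcripts, was compared in zebrafish larvae at the highest dose of PFOS and at the 2 lowest. The comparison took every gene with at least 2 transcripts that each averaged at least 50 estimated counts over the 9 libraries of these doses. That left 3190 of the 32520 genes and 7277 of the 59876 transcripts in the deposited tables. Of the 3190 genes, 2559 had 2 such transcripts, 448 had 3 and the rest had 4 or more, with 13 in tnnt3b. At the edge of the threshold, the lowest member averaged 50 counts and the highest transcript left out of these genes averaged 49.9, and 510 members lay between 50 and 60 counts.

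PFOS, perfluorooctane sulfonate, is a fluorinated surfactant that persists in water and tissue. RNA came from the whole body of AB wild-type larvae at 120 hours post fertilisation, with 3 libraries at 10 µM PFOS, set against 3 at 1 µM and 3 at 0.1 µM, called the low-dose libraries below. Another 3 libraries at 5 µM and 3 unexposed controls were sequenced, and their values are given beside the comparison. The labels give neither the start of exposure, nor the vehicle, nor how many larvae went into a library, and no cell type can be assigned in whole larvae.

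A gene gives rise to several transcripts by starting at different promoters, by including or skipping exons, by keeping an intron, or by ending at different sites. Some of these encode different proteins. Others, such as transcripts with a retained intron or those marked for nonsense-mediated decay, a pathway that destroys messages with an early stop codon, usually yield no full protein. In larval zebrafish, muscle and neurons are known for extensive alternative splicing, for example of troponin T, tropomyosin and the neurexins. In bulk RNA from whole larvae, a change of usage within a cell and a change in the number of cells of a type cannot be told apart.

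Total estimated counts ran between 11956622 and 19978041 over the 9 libraries. Transcripts that define muscle (actc1b), neurons (elavl3), liver (fabp10a), exocrine pancreas (ctrb1), lens (cryba2a) and skin (krt4) were present in all 15 libraries. Of 12 such markers, 2 lay below the low-dose range in all 10 µM libraries and none lay above it in all of them. CPM values of the neuronal elavl3 were 184, 195 and 188 at 10 µM against 197 to 245 at low dose, and those of mylpfa, a myosin light chain of fast muscle, were 4273, 3752 and 4345 against 4715 to 7174. Their part in the usage changes was not tested. The deposited counts and RPKM values together imply an effective length for each transcript in each library, which is the number of positions where a fragment can start. This length was larger by 82.0, 26.1 and 78.6 bases in the 10 µM libraries numbered 2, 3 and 4 in the table than in the mean of the low-dose libraries, over 427 genes with a single transcript in the table. In the other 12 libraries the shift lay between -4.75 and 5.89 bases. Every 10 µM library therefore carries a shift that no other library has, it is about 3 times smaller in library 3, and dose and shift cannot be told apart. Values at 10 µM are given below in the order of libraries 2, 3 and 4, so that library 3 is always in the middle.

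**Figure D1:**
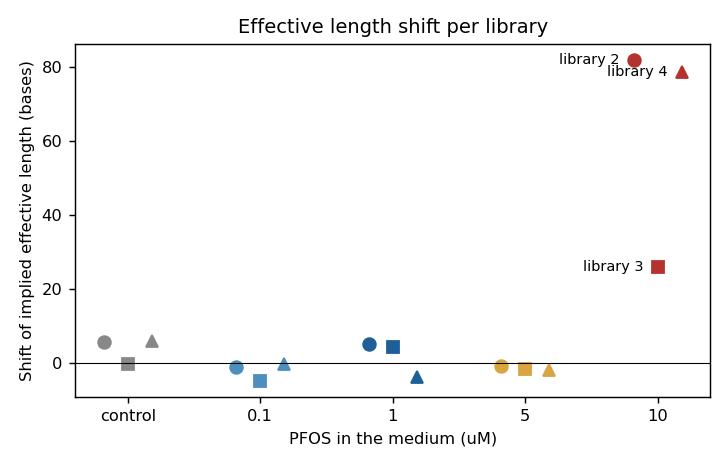
Shift of the implied effective length in bases (vertical axis) in each of the 15 libraries, by PFOS dose (horizontal axis); symbols are the libraries of a dose. The 10 µM libraries lie at 82.0, 26.1 and 78.6 bases, above the range of -4.75 to 5.89 of the other libraries.

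In the 10 µM libraries against the low-dose libraries, 283 of the 3190 genes were called for transcript usage, at an adjusted p below 0.05 in edgeR's quasi-likelihood test. This is 8.87% of the genes tested, and 747 had an unadjusted p below 0.05. In limma voom, a second test of the same counts, 211 genes passed, which is 6.61%, and 200 of the 283 were among them. On simulated counts edgeR made more calls among unchanged genes than its threshold allows, and its usage calls and adjusted p-values below carry that limit. No such check was made of limma voom. It is said below where a gene passed edgeR and not limma voom. DESeq2 with a term for each library called 215 genes, 185 of them among the 283, and 147 genes passed all 3. Combining edgeR's transcript tests by Simes gave 51 genes, and limma on the log odds of the share gave 8, all among the 283. Without the 10 µM library 2 edgeR called 119 genes, without library 4 it called 155, and without library 3 it called 408. Of 72 genes chosen for description by a rule, 42 passed edgeR's test without each of the 9 libraries in turn, 17 failed in 1 or 2 of these fits and 13 in 3 or more. The genes usp7 and ndufa10 failed in 8, klhl29, elovl1b, grin1b and ppp1r10 in 6, ank2b, atp2b4 and ppardb in 5, pax7a in 4, and suco, nup98 and ncl in 3. In the test of each transcript against the rest of its gene, 73 transcripts passed, 48 of them higher and 25 lower at 10 µM.

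The called changes ranged from small to large. In 467 genes, 14.6% of those tested, at least 1 transcript had a share in all 10 µM libraries that lay above, or below, all 6 low-dose libraries, and 230 of the 283 called genes were among these. The difference was at least 10 percentage points in 128 of the 230, at least 20 points in 42 and at least 30 points in 5. The most changed transcript differed by a median of 11.2 points in called genes and of 3.52 points in the others. The calls rest on these same differences, so a larger median in called genes follows from the choice. Between 1 µM and 0.1 µM, with 3 libraries against 3, no gene passed edgeR's test and 148 had an unadjusted p below 0.05. The 5 µM libraries against the same low-dose libraries gave 7 genes, and the controls gave 3. Both counts came from a fit of all 15 libraries, in which 10 µM gave 267. These comparisons share the low-dose libraries.

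**Figure D2:**
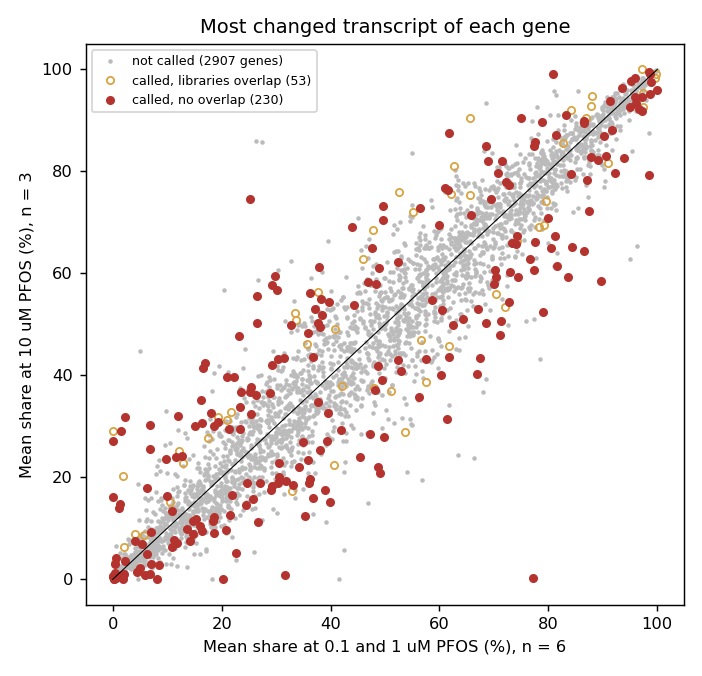
Mean share of the most changed transcript of each gene at 10 µM (vertical axis, percent, n = 3) against its mean share at 0.1 and 1 µM (horizontal axis, percent, n = 6), with each point a gene and the line marking equal shares. Red points are the 230 called genes whose libraries do not overlap, open points the other called genes, and grey points the genes not called.

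Genes with many reads passed more often. Of genes with under 300 counts on their members 3.69% were called, and of those with 3000 or more 29.6%. The share called was 7.03% for genes with 2 members, 14.5% with 3 and 20.8% with 4 or more.

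The 3 libraries at 10 µM did not stand equally far from the low doses. Over the 230 genes with non-overlapping shares, library 3 was the nearest to the low-dose mean in 114, library 4 in 65 and library 2 in 51. The distance of library 3 was a median of 0.847 times the mean distance of libraries 2 and 4. These genes were chosen for library 3 lying outside the low-dose range, as were libraries 2 and 4, which raises that ratio, so it is not set against the shift in effective length. In 45 of the 230 genes library 3 moved less than 0.5 times as far as libraries 2 and 4, in 106 it moved 0.5 to 1 times as far, and in 79 at least as far. With library 3 as the only 10 µM library edgeR called 110 genes, 49 of them among the 283. With the effective length shift of each library as a covariate edgeR called 83, and 21 of these were among the 283. The shift hardly varied among the low-dose libraries, so its slope rests mainly on library 3 against libraries 2 and 4. The dose term of that fit is an extrapolation to a shift that no 10 µM library has. The fit therefore cannot show which calls go with the shift. Of the 53 called genes without a non-overlapping transcript, 30 had a transcript outside the low-dose range in libraries 2 and 4 alone.

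**Figure D3:**
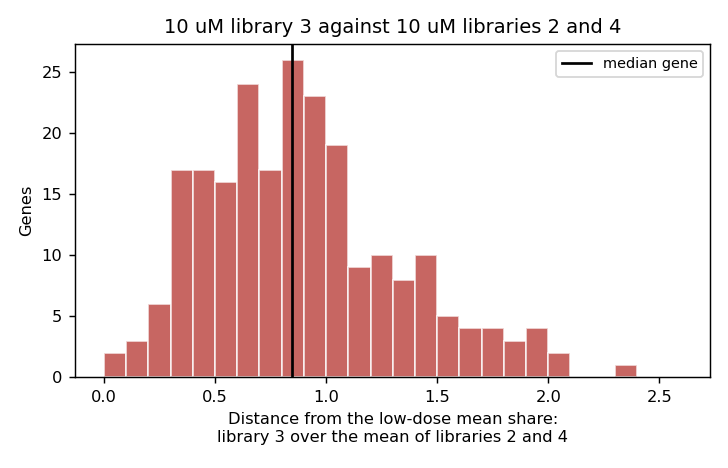
Number of genes (vertical axis) by the distance of 10 µM library 3 from the low-dose mean share, divided by the mean distance of libraries 2 and 4 (horizontal axis, ratio), for the 230 called genes with non-overlapping shares. The line is the median ratio of 0.847; the choice of genes asks library 3 to lie outside the low-dose range.

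Over the 230 genes as a set, 5 µM and the controls stayed near the low doses, but single genes did not. Of the 7 genes called at 5 µM against the low doses, 3 were among the 283. The genes vamp4 (adjusted p = 0.00255, edgeR) and nrxn1a (adjusted p = 0.0128, edgeR) were among these. Of the 3 called in the controls against the low doses, 1 was among the 283. Taking the distance from the low-dose mean to the 10 µM mean as 1, the 5 µM mean lay at a median of 0.0402 in the 10 µM direction over the 230 genes and the control mean at 0.0672. All 3 libraries at 5 µM lay outside the low-dose range on the 10 µM side in 4 of the 230 genes, and all 3 controls in 3.

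A group of 33 genes passed edgeR, limma voom, DESeq2, a fit with the implied lengths as an offset, and a fit with library 3 as the only 10 µM library. This group was chosen after its values were seen, and the fit on library 3 takes that library to vary as the low-dose libraries do. In 32 of them at least 1 transcript did not overlap, and 26 also passed edgeR's test without each of the 9 libraries in turn. In limma on the log odds of the share only vamp4 and eif1b of the group passed. The adjusted p of the others ran from 0.0664 to 0.184 in that test. The group holds genes of translation (eif1b, eef1b2, rps24, rpl23a, rps12), muscle (tpma, mybpc3, atp2a1), endocytosis (eps15, ap2a1), chromatin (kdm2ab, brd1a) and extracellular matrix (sparc, col18a1a), together with vamp4, ptena, pam, ran, pik3r1 and others.

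Translation genes were among the most often called, before depth is taken into account. The gene eif1b encodes an initiation factor of the family that helps the ribosome choose a start codon, and it has 2 coding transcripts on chromosome 24. The share of eif1b-202 was 28.5, 30.1 and 26.7% at 10 µM, and at low dose its lowest, median and highest values were 43.5, 47.2 and 50.6%. The 10 µM libraries lay close together and all below the low-dose range, as did they below the controls (46.7, 46.3 and 49.5%) and the 5 µM libraries (45.6, 49.4 and 38.2%). Means were 28.4 ± 1.67% at 10 µM (SD, n = 3) and 47.3 ± 2.69% at low dose (SD, n = 6), with adjusted p = 9.45e-05 in edgeR. This transcript spans 32517915 to 32522655 on the minus strand, in the files' coordinates; their genome build is named by neither the labels nor the headers. The gene was also 1 of the 8 that passed limma on the log odds of the share, and its total expression was higher by 0.38 on the log2 scale (adjusted p = 0.0057, edgeR).

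The gene eef1b2, the nucleotide exchange subunit of translation elongation factor 1, showed the split between libraries. Its coding transcript eef1b2-201 held 13.0, 40.4 and 12.8% at 10 µM against 42.2 to 54.0% at low dose, with a low-dose median of 49.6%. Library 3 lay just below the low-dose range and libraries 2 and 4 far below it. The non-coding transcript eef1b2-204 held 40.5, 31.2 and 40.6% at 10 µM, against 16.1 to 22.0% at low dose, and it was above that range in all 3 libraries. The gene passed edgeR (adjusted p = 0.000303), and its total count hardly differed (log2 change 0.01, adjusted p = 0.935, edgeR).

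Of 25 translation factors, 7 were called, 28.0%, beside 8.87% over all genes, and 6 of the 7 also passed limma voom. Their median was 2065 member counts, against 616 over all genes compared. Among the 11 with 3000 counts or more 3 were called, 27.3%, beside 29.6% of all genes in that class. Of these, pabpc1a encodes a poly(A)-binding protein, and its short non-coding transcript pabpc1a-204 held 9.40, 8.66 and 9.82% at 10 µM against 6.62 to 7.43% at low dose. That gene did not pass edgeR's fit with lengths as an offset (adjusted p = 0.0852, within 0.002 to 0.82 over all fits).

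Of 38 genes of cytosolic ribosomal proteins, 17 were called, 44.7%, and 8 of the 17 passed limma voom. These genes are among the deepest in the data: their median was 12015 member counts, against 616 over all genes compared, and 36 of the 38 had 3000 counts or more, a class in which 29.6% of all genes were called. The most changed transcript differed by a median of 4.94 points among the 17, and by 0.214 to 29.2 points. In rps24, the described transcript rps24-206 held 1.96, 2.86 and 1.92% at 10 µM against 3.67 to 5.95% at low dose (adjusted p = 0.000303, edgeR), and the libraries did not overlap.

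The ribosomal protein gene rpl28 carried a transcript seen at no other dose. The transcript rpl28-203 had 606 to 1273 counts per library at 10 µM and held 19.4, 9.22 and 20.1% of the gene. It was listed at 0 in all 6 low-dose libraries, all 3 at 5 µM and all 3 controls. The low-dose libraries together held 46777 counts of the gene, so that a count of 0 allows a share of up to 0.00641%; this limit covers counting error only and not the assignment of reads between transcripts. The gene passed edgeR (adjusted p = 2.1e-11) and not limma voom (adjusted p = 0.119), and over all fits its adjusted p ran between 6.7e-66 and 0.12.

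The smallest p of all genes compared was in a muscle gene. The gene tpma encodes an alpha-tropomyosin of fast muscle, a coiled coil that lies along actin filaments and gates the binding of myosin, and 9 of its transcripts entered the comparison. Its long transcript tpma-202, on chromosome 7 between 29951997 and 29962080, held 22.0, 47.2 and 25.0% at 10 µM. At low dose the lowest, median and highest shares were 57.0, 62.6 and 65.7%, at 5 µM they ran from 58.5 to 62.2%, and in controls from 56.6 to 62.7%. All 3 libraries at 10 µM lay below every other library, and library 3 had moved 0.375 times as far as libraries 2 and 4. Its adjusted p was 4.27e-16 in edgeR, over a mean of 42608 counts on this transcript.

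The share lost by tpma-202 was spread over the short transcripts of the gene. The transcript tpma-201 held 16.5, 7.66 and 17.8% at 10 µM against 0.844 to 4.18% at low dose, and tpma-206 held 5.17, 2.21 and 4.62% against 0.776 to 1.03%. The transcripts tpma-205, tpma-204, tpma-208, tpma-210 and tpma-207 also had higher means at 10 µM, by 0.90 to 4.04 points. Per length, with each count divided by the effective length of its transcript in that library, tpma-202 held a mean of 5.88% of the gene at 10 µM and 13.9% at low dose, and tpma-201 11.6% and 2.67%. On that scale tpma-203 and tpma-205 had lower means at 10 µM (28.4% and 27.2%) than at low dose (38.0% and 31.5%), the other sign from their shares of counts.

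Of 62 other sarcomere genes 12 were called, 19.4%, beside 8.87% over all genes, and 9 of these passed limma voom. Among the 21 with 3000 counts or more 5 were called, 23.8%, beside 29.6% of all genes in that class. The gene mybpc3, known in mammals as the cardiac myosin-binding protein C, changed alike in all 3 libraries. Its transcript mybpc3-201 held 20.3, 21.0 and 18.8% at 10 µM against 26.9 to 33.2% at low dose, and its transcript mybpc3-203 held 21.5, 21.2 and 19.2% against 11.9 to 16.6% (adjusted p = 6.66e-05, edgeR). In mybphb, a relative of myosin-binding protein H, transcript mybphb-202 held 16.1, 25.1 and 16.9% at 10 µM against 30.9 to 33.2% at low dose, with library 3 nearer to the low doses. The fast troponin T gene tnnt3b, which tethers the troponin complex to tropomyosin, had 13 transcripts compared, and its transcript tnnt3b-206 held 30.6, 27.2 and 30.4% at 10 µM against 19.8 to 27.1% at low dose. The 5 µM libraries lay across both ranges there, at 27.9, 22.5 and 32.9%. In tpm3, a second tropomyosin, tpm3-201 held 54.8, 47.6 and 48.7% at 10 µM against 34.0 to 42.6% at low dose (adjusted p = 0.0124, edgeR).

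Of 27 genes of muscle calcium handling 5 were called, 18.5%, beside 8.87% over all genes. With 3000 counts or more 3 of 6 were called, beside 29.6% of all genes in that class, a difference that was not tested. The gene atp2a1 encodes the calcium pump of the sarcoplasmic reticulum in fast muscle, and its short non-coding transcript atp2a1-204 held 1.54, 0.941 and 1.40% at 10 µM against 0.395 to 0.483% at low dose (adjusted p = 3.65e-11, edgeR). Controls held 0.447 to 0.517%, so by share of counts the 10 µM libraries stood above all others. The effective length of atp2a1-204 is only 99.8 bases, against length shifts of 82.0, 26.1 and 78.6 bases at 10 µM. Per length it held a mean of 19.97% of the gene at 10 µM and 11.65% at low dose. With lengths as an offset the gene passed edgeR (adjusted p = 3.45e-09). How much of the change in counts goes with the length shift was not tested. In jph1b, a junctophilin that holds the reticulum to the plasma membrane, jph1b-203 held 53.4, 56.1 and 49.5% at 10 µM against 60.7 to 76.6% at low dose, without overlap. In atp2a1l, a close relative of atp2a1, the shorter atp2a1l-202 held 6.89, 6.75 and 7.13% at 10 µM against 5.01 to 5.68% at low dose. The actin gene actb2 had its non-coding transcript actb2-203 at 0.774, 0.0656 and 0.750% at 10 µM against 0.0134 to 0.0325% at low dose, a change carried mostly by libraries 2 and 4.

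**Figure D4:**
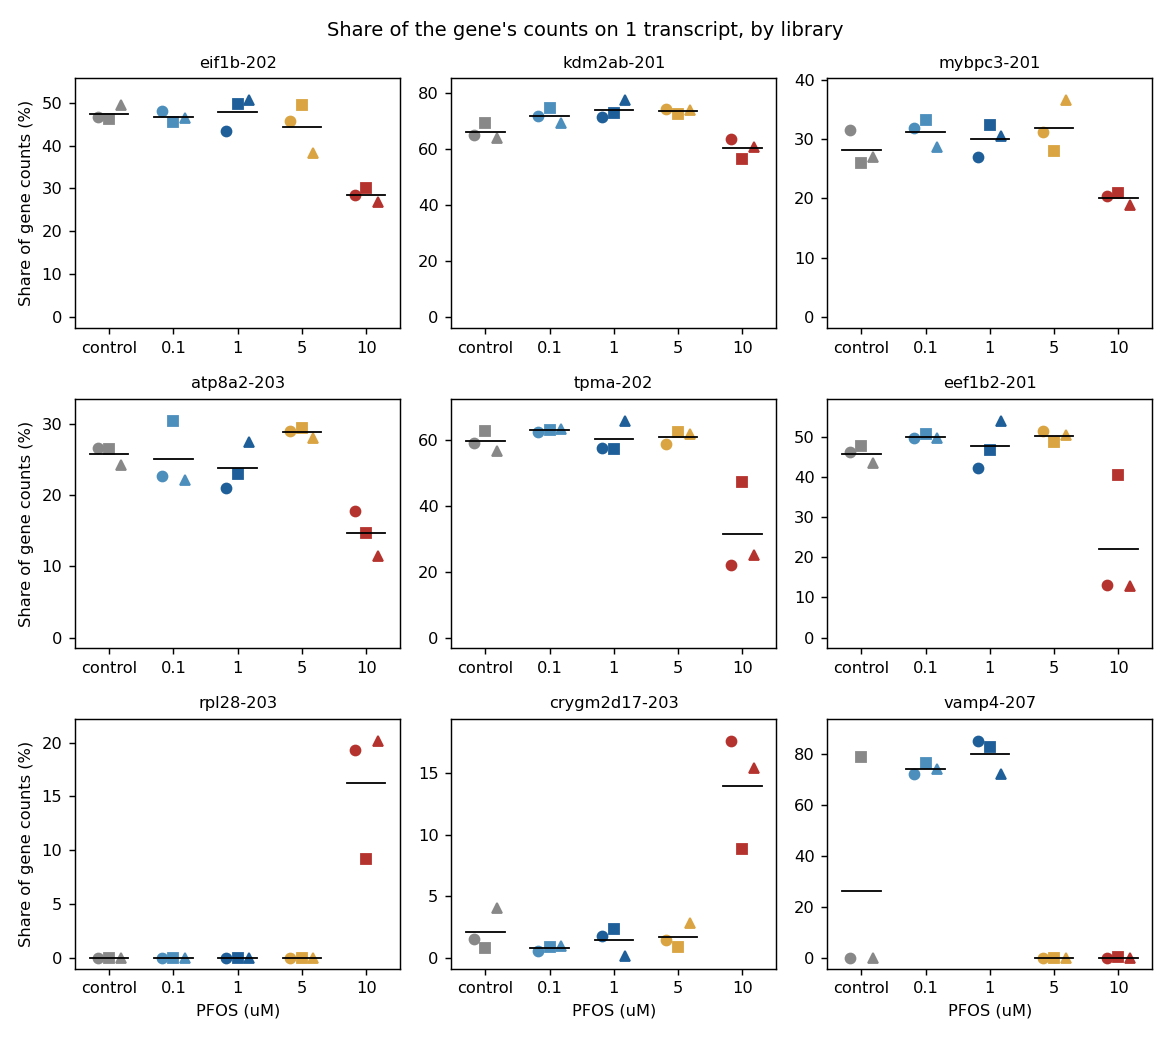
Share of the gene's counts (vertical axis, percent) on 1 transcript of each of 9 genes in all 15 libraries, by PFOS dose (horizontal axis, µM); circles, squares and triangles are the libraries of a dose in the order of their numbers, so the square at 10 µM is library 3, and bars are means. In eif1b, mybpc3, kdm2ab and atp8a2 the 10 µM libraries lie together, in tpma, eef1b2, rpl28 and crygm2d17 library 3 lies apart from libraries 2 and 4, and vamp4-207 is at or near 0 at 5 µM and in 2 controls as well.

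In the lens, 4 of 25 eye genes were called, 16.0%, all 4 of them gamma-M crystallins of the crygm2d cluster, which encode the dense soluble proteins of the fish lens, and all 4 passed limma voom. All 4 were among the 15 eye genes with 3000 counts or more, of which they make 26.7%, beside 29.6% of all genes in that class. The crystallin transcript with a retained intron crygm2d17-203 held 17.6, 8.87 and 15.4% at 10 µM against 0.183 to 2.34% at low dose, and controls held 0.782 to 4.05% (adjusted p = 8.65e-05, edgeR). The libraries did not overlap, and library 3 had moved 0.504 times as far as the other two. In crygm2d10 the retained-intron transcript held 5.83, 1.17 and 5.74% at 10 µM against 0.305 to 1.04% at low dose, and in crygm2d3 it held 51.0, 47.0 and 48.7% against 31.1 to 38.2%. These genes are near-identical copies on chromosome 9, so the division of reads between them and between their transcripts is uncertain.

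Before depth is taken into account, genes of neurons were called near the share over all genes or below it. Of 49 genes of synapse and vesicle release 2 were called, 4.08%, of 47 of the neuronal cytoskeleton 3, 6.38%, and of 54 receptors and channels 3, 5.56%, beside 8.87% over all genes. With 3000 counts or more these were 0 of 5, 1 of 7 and 2 of 4, beside 29.6% of all genes in that class. These are differences of a few genes and were not tested. The neurexin gene nrxn1a, whose product spans the presynaptic membrane and is known for its many splice forms, had 8 transcripts compared. Its transcript nrxn1a-204 held 34.7, 16.9 and 44.1% at 10 µM, and at low dose its lowest, median and highest shares were 0, 0.486 and 6.66%. At 5 µM it held 7.90, 6.43 and 21.5%, so 1 library at 5 µM reached the 10 µM range, and in controls it held 4.38, 0 and 1.94%. The long nrxn1a-208 held 4.55, 6.99 and 8.79% at 10 µM against 16.4 to 38.9% at low dose, and the gene passed edgeR with adjusted p = 9.04e-08 and limma voom as well. Its total expression fell by 0.32 on the log2 scale (adjusted p = 0.00671, edgeR).

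The 3 called genes among receptors and channels differed by 2.59 to 3.34 points. In slc6a9, a glycine transporter gene, slc6a9-201 held 93.5, 92.6 and 94.3% at 10 µM against 95.5 to 96.6% at low dose, and the controls spanned the gap with 94.2 to 96.1%. In atp2b4, a plasma membrane calcium pump gene, atp2b4-202 held 87.5, 85.5 and 87.5% at 10 µM against 88.2 to 91.5% at low dose. In ank2b, of the neuronal cytoskeleton, whose ankyrin ties membrane proteins to the spectrin skeleton, ank2b-205 held 55.7, 54.8 and 54.0% at 10 µM against 57.1 to 61.0% at low dose, and 2 libraries at 5 µM lay in the 10 µM range or next to it, at 55.0 and 55.8%. In grin1b, the gene of an NMDA receptor subunit, grin1b-202 overlapped between the groups, with 84.3 to 86.8% at 10 µM against 79.9 to 84.8% at low dose, and did not pass limma voom.

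The tubulin gene tuba1b had tuba1b-201 at 70.5, 43.4 and 59.4% at 10 µM against 25.4 to 33.4% at low dose (adjusted p = 0.00265, edgeR), and 1 control library held 47.0%, inside the 10 µM range. In rtn4a, a reticulon of the endoplasmic reticulum related to Nogo, rtn4a-201 held 39.6, 41.0 and 45.3% at 10 µM against 24.8 to 33.0% at low dose, and the gene's expression was higher by 0.64 on the log2 scale (adjusted p = 0.00225, edgeR). Of 9 flippase and lipid transport genes 1 was called, 11.1%, close to the 8.87% over all genes. It was the flippase gene atp8a2, whose product moves phosphatidylserine to the inner face of membranes in neurons and photoreceptors. Its transcript atp8a2-203, on chromosome 24, held 17.7, 14.7 and 11.5% at 10 µM against a lowest, median and highest of 21.0, 22.8 and 30.5% at low dose. The 5 µM libraries held 28.1 to 29.5% and the controls 24.2 to 26.7%, so only 10 µM lay below 20%. Means were 14.6 ± 3.14% at 10 µM (SD, n = 3) and 24.5 ± 3.67% at low dose (SD, n = 6), with adjusted p = 0.00479 in edgeR and the same side of the threshold without each library in turn.

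Of 93 genes of splicing factors and RNA-binding proteins 10 were called, 10.8%, close to the share over all genes. The gene tra2a encodes a Transformer 2 protein that binds exonic enhancers, and its main transcript tra2a-201 held 80.0, 81.2 and 78.2% at 10 µM against 67.0 to 76.8% at low dose (adjusted p = 0.000777, edgeR). The gene u2af2a encodes the large subunit of the factor that recognises the end of introns, and u2af2a-202 held 12.6, 13.6 and 11.4% at 10 µM against 17.0 to 24.1% at low dose (adjusted p = 0.0165, edgeR). In both genes library 3 stood as far from the low doses as libraries 2 and 4 or nearly so, at ratios of 1.25 and 0.834. In rbm4.3, rbm4.3-201 held 68.2, 82.7 and 87.1% at 10 µM against 93.5% or more at low dose, but the gene did not pass limma voom.

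Of 96 genes of chromatin and transcription 9 were called, 9.38%, beside 8.87% over all genes. The histone demethylase gene kdm2ab had kdm2ab-201 at 63.4, 56.6 and 60.9% at 10 µM against 69.2 to 77.5% at low dose (adjusted p = 0.00153, edgeR). Controls held 63.8 to 69.2%, between these ranges, and the 10 µM libraries against the controls did not pass edgeR's test (adjusted p = 0.202, within 0.00021 to 0.62 over all fits). In brd1a, a scaffold of histone acetyltransferases, brd1a-201 held 81.6, 75.4 and 78.0% at 10 µM against 82.8 to 90.6% at low dose. In pax6a, a regulator of eye development, pax6a-204 held 75.4, 77.3 and 77.3% at 10 µM against 52.1 to 72.6% at low dose, but the gene just missed limma voom.

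Of 41 genes of glycolysis and energy metabolism 7 were called, 17.1%, and of 19 of oxidative phosphorylation 4, 21.1%, beside 8.87% over all genes. With 3000 counts or more these were 6 of 16 and 2 of 4, beside 29.6% of all genes in that class. The differences were not tested. The gene ogdha encodes a subunit of the 2-oxoglutarate dehydrogenase of the citric acid cycle, and ogdha-204 held 36.9, 51.3 and 32.7% at 10 µM against 60.1 to 75.6% at low dose (adjusted p = 0.00889, edgeR). The 5 µM libraries held 71.2, 54.9 and 58.6%, of which the lower 2 fell between the 10 µM and low-dose ranges. In uqcrc1, a core subunit of respiratory complex III, uqcrc1-202 held 89.4, 87.5 and 92.1% at 10 µM against 72.1 to 83.8% at low dose (adjusted p = 0.000404, edgeR), and 1 control held 89.2%. In atp5pb, which encodes a stalk subunit of ATP synthase, the retained-intron transcript atp5pb-203 held 39.5, 30.5 and 40.2% at 10 µM against 23.5 to 29.6% at low dose. In ckbb, the gene of brain creatine kinase, the minor transcript ckbb-204 held 2.05, 1.75 and 1.77% at 10 µM against 0.476 to 0.815% at low dose (adjusted p = 3.35e-06, edgeR), above every library of the other groups. In ndufa10, a complex I subunit gene, ndufa10-201 held 90.1, 98.5 and 89.5% at 10 µM against 96.9 to 98.1% at low dose, so library 3 lay on the other side of the low-dose range from libraries 2 and 4, and the gene did not pass limma voom. In slc25a55a, of the mitochondrial carrier family, the retained-intron transcript held less at 10 µM, with 3.78, 1.81 and 3.03% against 5.30 to 10.9% at low dose.

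In membrane traffic 3 of 59 genes were called, 5.08%, in adhesion 7 of 80, 8.75%, and in the matrix 6 of 49, 12.2%, beside 8.87% over all genes. With 3000 counts or more these were 1 of 4, 1 of 4 and 5 of 12, beside 29.6% of all genes in that class. These differences were not tested. The gene eps15 encodes an adaptor of clathrin-coated pits, and eps15-201 held 55.0, 54.4 and 68.6% at 10 µM against 69.5 to 79.5% at low dose (adjusted p = 0.00415, edgeR). In ap2a1, a subunit of the clathrin adaptor AP-2, the change was small, with ap2a1-203 at 94.0, 91.4 and 92.5% at 10 µM against 94.0 to 95.8% at low dose. In the phosphatase receptor gene ptprfb, ptprfb-201 held 30.6, 31.6 and 28.2% at 10 µM against 15.4 to 23.4% at low dose (adjusted p = 0.000303, edgeR). Among adhesion genes, the protocadherin gene pcdh1b had pcdh1b-202 at 9.54, 8.06 and 9.34% at 10 µM against 12.6 to 18.5% at low dose, and the controls and 5 µM libraries also lay above 10%. In cdh13, the gene of a cadherin anchored in the membrane by a lipid, cdh13-201 held 58.9, 60.5 and 69.1% at 10 µM against 37.3 to 60.4% at low dose, so the groups overlapped. In rab1ba, a Rab GTPase gene of transport from the endoplasmic reticulum to the Golgi, rab1ba-201 held 98.5, 97.4 and 97.2% at 10 µM against 94.2 to 96.2% at low dose. In sept2, a septin gene, sept2-203 held 18.8, 11.7 and 16.8% at 10 µM against 21.9 to 30.4% at low dose, and 1 control held 19.2%. The matrix gene sparc, which binds collagen, had sparc-201 at 91.5, 89.6 and 94.7% at 10 µM against 96.6 to 97.8% at low dose. In hapln1a, a link protein that ties hyaluronan to proteoglycan, hapln1a-202 held 23.2, 26.6 and 22.6% at 10 µM against 9.52 to 15.7% at low dose, and total expression fell by 0.71 on the log2 scale (adjusted p = 0.00148, edgeR).

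Of 45 genes of liver, plasma and xenobiotic metabolism 6 were called, 13.3%, and of 22 of lipid metabolism 3, 13.6%, beside 8.87% over all genes. Among the 16 liver, plasma and xenobiotic genes with 3000 counts or more 3 were called, 18.8%, beside 29.6% of all genes in that class. The symbol apoa4b.2 is repeated among the 6. The glucuronosyltransferase gene ugt2a4 had ugt2a4-202 at 41.7, 40.8 and 48.5% at 10 µM against 57.0 to 63.9% at low dose (adjusted p = 0.00592, edgeR), and all controls lay above 60%. In the apolipoprotein gene apoa4b.2, apoa4b.2-207 held 46.0, 47.5 and 50.5% at 10 µM against 54.7 to 78.8% at low dose, but 1 library at 5 µM held 37.5%. The gene ppardb encodes a nuclear receptor for fatty acids, and ppardb-202 held 32.8, 29.0 and 30.1% at 10 µM against 6.94 to 23.7% at low dose (adjusted p = 0.021, edgeR), with 1 library at 5 µM and 1 control at 24.5%. In acsl4b, which encodes an enzyme that activates long fatty acids, acsl4b-201 held 91.8, 91.0 and 90.4% at 10 µM against 80.2 to 88.3% at low dose, and the gene's expression was higher by 0.55 on the log2 scale (adjusted p = 0.00182, edgeR); its usage did not pass limma voom. In elovl1b, the gene of a fatty acid elongase, elovl1b-205 held 60.1, 74.9 and 70.6% at 10 µM against 37.1 to 74.2% at low dose. The low-dose maximum came from 1 library, the others ending at 50.9%, and the gene failed edgeR's test in 6 of the 9 fits that left out 1 library. The transferrin gene tfa had tfa-201 at 0, 1.59 and 1.66% at 10 µM against 5.71 to 8.77% at low dose, but the controls held 0.588 to 4.21%, nearer to the 10 µM libraries, and the gene did not pass limma voom.

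Of 20 chaperone genes 5 were called, 25.0%, of 37 of the proteasome and ubiquitin system 4, 10.8%, of 55 actin regulators 5, 9.09%, and of 20 of the epidermis 1, 5.00%. The share over all genes was 8.87%. With 3000 counts or more 3 of 5 chaperone genes were called, beside 29.6% of all genes in that class, a difference that was not tested. In the chaperone gene hspa8, over a mean of 69778 counts on its main transcript, the short hspa8-203 held 0.595, 0.517 and 0.650% at 10 µM against 0.231 to 0.326% at low dose (adjusted p = 0.00488, edgeR), and the other libraries ended at 0.328%. In ppiaa, the gene of the prolyl isomerase cyclophilin A, ppiaa-201 held 33.9, 43.0 and 34.2% at 10 µM against 46.1 to 50.8% at low dose. Its retained-intron transcript ppiaa-203 held 11.1, 0.199 and 8.83% at 10 µM against 0.132 to 0.275% at low dose, so library 3 equalled the low doses, and the gene did not pass limma voom. The gene called in the epidermis list was cst3, which encodes a cystatin, an inhibitor of cysteine proteases, with cst3-201 at 65.1, 63.0 and 73.6% at 10 µM against 74.7 to 85.3% at low dose. In usp7, a deubiquitinase gene, usp7-201 held 34.9, 29.6 and 33.7% at 10 µM against 36.7 to 43.6% at low dose, but the gene did not pass limma voom and failed edgeR's test in 8 of the 9 fits that left out 1 library. In usp38, another deubiquitinase gene, usp38-201 held 22.3, 26.7 and 23.2% at 10 µM against 37.3 to 56.4% at low dose (adjusted p = 0.00241, edgeR), without overlap with the controls or the 5 µM libraries either.

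**Figure D5:**
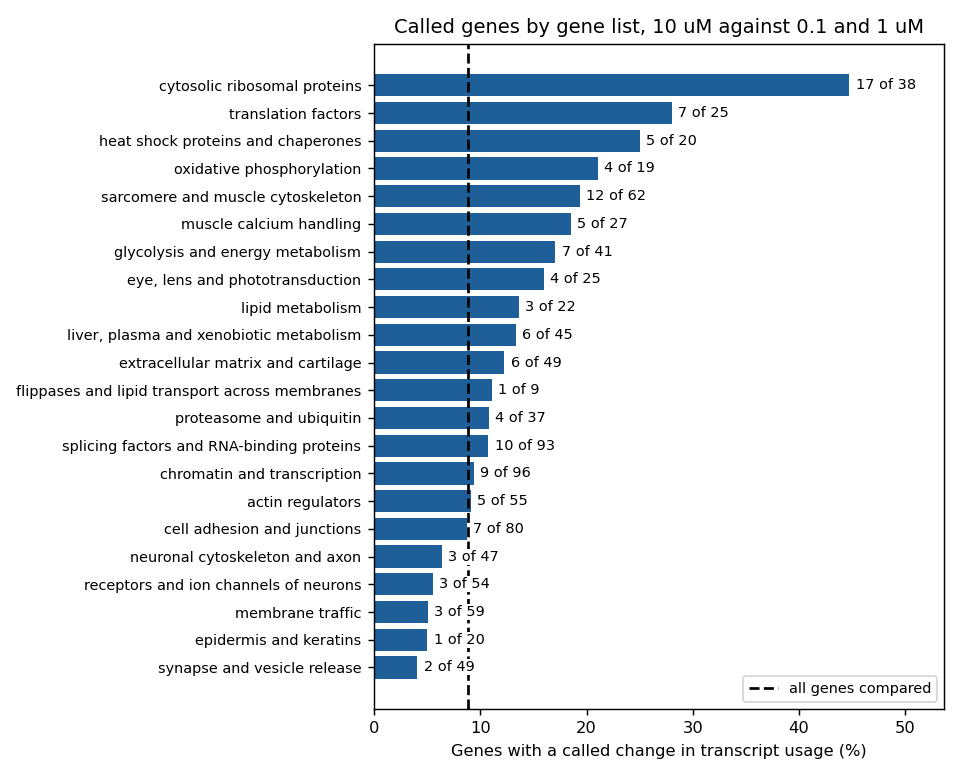
Share of the genes of each list that were called for transcript usage at 10 µM against 0.1 and 1 µM (horizontal axis, percent), with the called and tested genes beside each bar. The dashed line is the 8.87% over all genes. Ribosomal proteins (17 of 38) and translation factors (7 of 25) lie highest and genes of the synapse (2 of 49) lowest. The bars take no account of depth.

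Several of the largest differences fell on transcripts that some libraries list at 0. The gene vamp4 encodes a SNARE protein of the trans-Golgi network and endosomes, and it had the largest difference of all named genes. Its transcript vamp4-207 held 0, 0.513 and 0% at 10 µM and 72.2, 75.4 and 85.3% as the lowest, median and highest at low dose, and vamp4-201 held 73.8, 76.4 and 77.2% at 10 µM and at most 0.321% at low dose (adjusted p = 1.67e-09, edgeR). The other libraries did not follow the dose: vamp4-207 was listed at 0 in all 3 libraries at 5 µM and in controls 1 and 3, and held 79.0% in control 2. All 15 libraries thus put nearly all of this share on 1 transcript or on the other. The 2 transcripts differ by 10 bases of effective length, at 1386 and 1376 bases, over 195 to 391 counts of the gene in each of the 9 libraries. Against the controls the gene did not pass edgeR's test (adjusted p = 0.083, the highest over all fits, the lowest being 2.7e-51).

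In dstyk, a dual-specificity kinase gene, dstyk-201 held 36.4, 14.4 and 30.6% at 10 µM and was listed at 0 in all 12 other libraries. The low-dose libraries held 5141 counts of the gene in all, which allows a share of up to 0.0584%. In vcp, the gene of an ATPase that extracts ubiquitinated proteins, the non-coding vcp-205 was listed at 0 in all 3 libraries at 10 µM, where 14540 counts of the gene allow up to 0.0206%, and held 0.596 to 2.62% at low dose. Both genes passed edgeR (adjusted p = 7.83e-07 and 6.55e-06) and neither passed limma voom. In dnajc7, a co-chaperone gene, dnajc7-201 held 0, 0.253 and 0% at 10 µM against 9.51 to 29.9% at low dose, and in fam110b, fam110b-201 held 0, 2.29 and 0% against 5.45 to 56.3%, and neither of these passed limma voom. Over all genes compared, 298 had a member at 0 in at least 1 library, and 31 of the 283 called genes were among them.

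Among the other genes with differences over 25 points, nucleolin (ncl), a protein of ribosome assembly, had ncl-202 at 53.9, 61.2 and 60.6% at 10 µM against 78.3 to 94.1% at low dose, and did not pass limma voom. The gene suco had suco-201 at 57.8, 58.8 and 62.0% at 10 µM against 19.8 to 43.2% at low dose (adjusted p = 0.0164, edgeR), and all 3 libraries at 5 µM lay between 0 and 23.1%. In nup98, a nuclear pore gene, nup98-205 held 15.5, 35.9 and 11.3% at 10 µM against 38.5 to 63.2% at low dose (adjusted p = 0.0184, edgeR), with library 3 near the low-dose range. In mgrn1b, a ubiquitin ligase gene, mgrn1b-201 held 41.2, 63.9 and 52.0% at 10 µM against 68.7 to 92.2% at low dose, and the controls held 64.3 to 91.4%. The muscle stem cell regulator pax7a had pax7a-204 at 82.1, 59.5 and 81.9% at 10 µM against 10.3 to 46.7% at low dose, on 53.2 counts on average, and did not pass limma voom. In ppp1r10, a phosphatase regulator gene, ppp1r10-203 held 51.3, 8.36 and 27.4% at 10 µM against 0 to 6.64% at low dose, but 1 control held 26.8% and the gene did not pass limma voom. The gene klhl29 passed in the full comparison (adjusted p = 0.0353, edgeR) and failed in 6 of the 9 fits that left out 1 library, with klhl29-201 at 60.9, 39.0 and 66.9% at 10 µM against 3.75 to 38.0% at low dose. Library 3 lay just above the low-dose range there, and 1 control at 45.7% and 1 library at 5 µM at 43.8% lay above library 3.

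The transcript with the highest mean share differed between 10 µM and low dose in 272 genes, 8.53%, and in 52 of the called genes, 18.4%. Genes were called on shares in these same libraries, so a higher percentage among them follows from the choice. Between 1 µM and 0.1 µM it differed in 177 genes. In 9 genes 1 transcript led in all 10 µM libraries and another in all 6 low-dose libraries, and 5 of these were called: vamp4, the zinc transporter gene slc39a10, rpl24, zgc:66433 and clk4a, a kinase of splicing factors. On average slc39a10-201 held 61.2% at 10 µM and 37.9% at low dose, rpl24-204 61.0% and 48.9%, and clk4a-201 53.8% and 44.3%. In mboat1, wscd1b, pcloa and cirbpb the lead also changed in every library, and none of these passed edgeR.

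Transcripts that usually yield no full protein made up a small part of the counts. Of 192 retained-intron transcripts 22.4% lay in called genes, of 67 marked for nonsense-mediated decay 22.4%, of 126 other non-coding ones 19.0% and of 6880 coding ones 9.53%; these shares take no account of depth or of the number of members in a gene, and their difference was not tested. Of the 43 retained-intron transcripts in called genes 11 were above all low-dose libraries in every 10 µM library and 9 below. As a share of all counts of the compared genes, other non-coding transcripts made up 0.840, 0.659 and 0.843% at 10 µM against 0.627 to 0.650% at low dose, and retained-intron transcripts 1.21, 1.03 and 1.21% against 0.938 to 1.04%. Libraries 2 and 4 were above the low-dose range in both and library 3 was near it. An exact two-sided permutation test over the 9 libraries gave p = 0.0238 and p = 0.0476, the first being the smallest that 84 splits allow, and p = 0.190 for both after adjustment over 8 such measures.

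The more strongly rising transcript of a pair was the longer 1 in 36.4% of called genes and in 49.7% of the others, a difference that was not tested. The median share of the longest transcript of a gene was 60.3, 58.2 and 60.8% at 10 µM against 59.2 to 59.9% at low dose, with library 3 below and libraries 2 and 4 above (p = 0.714, exact two-sided permutation test). Transcripts under 700 bases of effective length took 13.1% of the counts in library 3 at 10 µM and up to 15.2% in libraries 2 and 4, against 12.5 to 13.6% at low dose (p = 0.0952, exact two-sided permutation test). Of the counts per length they took 42.2 and 42.6% in libraries 2 and 4 at 10 µM, against 39.9 to 41.4% at low dose, and library 3 lay inside that range (p = 0.214, exact two-sided permutation test). The 5 µM libraries also lay partly above the low-dose ranges, with 14.5, 13.0 and 13.4% of the counts and 42.8, 40.5 and 42.1% per length. In the files' coordinates, the ends of the 2 most changed transcripts lay over 100 bases apart in 77.0% of called genes and 72.2% of the others, and their starts in 68.2% and 71.3%. Which exons differ was not analysed here.

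Genes called for usage were called in total expression about as often as all genes compared. In total expression 4533 of 21118 genes passed edgeR's test at 10 µM against low dose, 21.5%, and 2419 of these were higher. Without library 2 that count was 1726 and without library 4 it was 2380. Among the genes compared for usage 28.7% passed in expression, and among the 283 called for usage 29.7%, namely 84 genes, 37 higher and 47 lower. The other 199 had no call in expression, among them eef1b2, mybpc3, eps15 and tra2a.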

How the data were processed

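RNA from 15 whole-larva samples was measured by RNA-seq. The authors deposited estimated counts per transcript as whole numbers, per the file headers, and RPKM values per transcript and per gene, which scale counts by effective length and library total. The submitters' aligner, counter and genome build are named neither in the labels nor in the headers. Of the per-sample columns, 48 were not used. The 10 µM columns are numbered 2, 3 and 4, whereas their titles are numbered 1, 2 and 3, so these libraries were matched to the dose and not to single samples, and for them 1 measure per table was used, the counts of transcripts and the RPKM of genes.

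Shares were computed over all transcripts of a gene. Usage was tested with edgeR 4.0.16 (glmQLFit and diffSpliceDGE, gene-level F test, R 4.3.3) on TMM-scaled counts, with a mean for each of 10, 1 and 0.1 µM and the contrast of 10 µM with the mean of the low doses. P-values were adjusted by Benjamini-Hochberg over all 3190 genes, or all 7277 transcripts, with a threshold of 0.05. limma 3.58.1 (voom and diffSplice) and DESeq2 1.42.0 were alternatives. The test code was run on simulated counts, where edgeR called more unchanged genes than its threshold allows. Gene expression was tested with edgeR on the counts of a gene's transcripts, summed, since the counts of the gene table were not used. The shift in effective length is the median over genes with 1 transcript, at least 1000 counts and an RPKM of at least 5 in every library. The effective length of a transcript was taken from the 12 other libraries where it had at least 20 counts. It could not be had for 3 members, whose genes have no share per length and whose length offset was set to 0. Intervals and limits cover counting error only.

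Described genes followed a rule: the 14 largest differences among called genes with a non-overlapping transcript, 8 more of smallest p, up to 3 called genes of smallest p per gene list, and 4 genes of an earlier account, 72 in all, of which 1 is not reported here. The genes of the group of 33 and of the 9 with a changed lead were picked by their values. Members, rule and 22 lists were chosen with earlier results of these data known. Nothing in the labels says that replicates came from separate clutches, so p-values measure the spread between libraries, which may be technical.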

Additional observations from a re-analysis of the deposited data

Results flagged for a closer look

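In 5 of the described transcripts, 1 of the 6 low-dose libraries stood apart, its gap to the nearest of the others being a larger part of the range of the 6 than Dixon's critical value at 95% allows. Chance gives such a gap in about 1 of 20 groups, and 72 genes were looked at. The share of ncl-202 was 78.3% in 0.1 µM replicate 2, and 91.2 to 94.1% in the other low-dose libraries. The share of ckbb-201 was 98.1% in 0.1 µM replicate 2, and 98.9 to 99.2% in the others. The share of rbm4.3-201 was 93.5% in 1 µM replicate 3, and at least 97.7% in the others. The share of atp5pb-203 was 29.6% in 1 µM replicate 2, and 23.5 to 25.4% in the others. The share of elovl1b-205 was 74.2% in 0.1 µM replicate 3, and 37.1 to 50.9% in the others. In ncl, ckbb, rbm4.3 and atp5pb the library that stood apart was the one nearest to the 10 µM libraries, which still did not overlap it; in elovl1b it lay inside the 10 µM range.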

How the results depend on the processing

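Of the 283 genes and 73 transcripts called, fewer were called with at least 200 counts per transcript (181 genes, 44 transcripts), against 0.1 µM alone (165 and 44), against 1 µM alone (151 and 39), against the controls (156 and 41), without both low-dose libraries numbered 1 (176 genes), with library 3 as the only 10 µM library (110 and 39), with the effective length shift as a covariate (83 and 30) and with limma on the log odds of the share (8 and 26). Combining transcript tests by Simes gave 51 genes, and asking for a change of 10 points as well gave 157. More transcripts were called with no filter (160), in limma voom (418) and in DESeq2 (410). Leaving out 1 library gave 119 to 408 genes and 31 to 135 transcripts, lowest without 10 µM library 2 and highest without library 3; without library 4 it gave 155 genes and 40 transcripts. For gene expression the range was 1726 to 4823, lowest without 10 µM library 2. The difference in the median share of the longest transcript ran from -0.304 to 0.990 points, and of the shortest from -0.359 to 0.338, with signs that turned on which 10 µM library was left out. With library 3 alone ndufa10-201 was higher at 10 µM by 1.04 points, the reverse of its difference of -4.76 points over all 3. Of the 72 described genes, 69 remained called with the length offset, 66 in DESeq2, 55 in limma voom, 28 with library 3 alone, 10 with the covariate and 7 on the log odds, and 45, 68 and 50 without 10 µM library 2, 3 and 4. The causes of these changes were not tested. The length offset, the log odds, library 3 alone, the covariate, the genes with no zero count, and the shares per length were added after the data were seen. No label says that a number pairs libraries, and the 10 µM columns carry other numbers than the titles. With a replicate block by column number, added after the data were seen, 138 genes were called, 101 of them among the 283, and 30 transcripts; library 4 at 10 µM, alone in its block, then carries no weight. Deviations of same-numbered libraries from their group means correlated across transcripts at -0.0945 to 0.0859. Those of differently numbered libraries correlated at -0.131 to 0.0999. Taken from means of 3 libraries, such deviations cannot show whether same-numbered libraries share an origin. Genes with under 300 counts were called least often, in 3.69%, and the smallest change detectable at that depth was not tested.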
